A study of Brassica napus with 30 samples.

Results

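Dry seeds of oilseed rape (Brassica napus) hold transcripts that were made before the seed dried. The 200 gene models described here stood high in dry seeds and in seeds that had taken up water for 8 h at 8 °C (8 h cold seeds), and low in 8 h warm seeds (25 °C) and in 36 h warm and 36 h cold seeds. They were chosen from 100919 gene models by group means of CPM (a model's read count scaled to a common library total). Within a genotype, the lower of the dry and 8 h cold means was divided by the highest mean of the other 3 groups, after 1 CPM was added to each. The log2 of that ratio, in the genotype where it was smaller, is called the score. A model needed a score of at least 1, a dry mean of at least 5 CPM and no lower than its 8 h cold mean in both genotypes, and a place outside the 100 most abundant models of dry seeds. Of 19267 models at 5 CPM or more in dry seeds of both genotypes, 651 met these conditions, and the 200 highest scores were taken. Their scores ran from 1.92 to 3.33 with a median of 2.24, and JY1621 was the genotype with the smaller ratio for 145 of them.

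RNA was sequenced from seeds of 2 genotypes, JY1605 and JY1621. Each was sampled dry and after water uptake for 8 h or 36 h in the cold or the warm, with 3 libraries in each of 10 groups. Sampling fell at hour 0 of the light cycle for dry seeds, hour 8 for 8 h seeds and hour 12 for 36 h seeds, so that comparisons between sampling times are also comparisons between times of day. Each RNA sample came from 100 seeds. The 3 libraries of a group are labelled as biological replicates, with no separate seed lots named, so the p-values measure the spread between these samples only. The libraries held 14250480 to 78251632 counts. The deepest was replicate 1 of the 36 h warm JY1621 seeds, and the second deepest held 35172867. All 30 libraries were most correlated with a library of their own group.

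A maturing seed stores messenger RNA that survives drying, often called long-lived or stored mRNA. When the seed takes up water, many of these transcripts are broken down while transcription starts again. Low temperature slows both metabolism and germination in seeds that have taken up water. No ID of the files was found in the RefSeq gene table, which is of the Da-Ae assembly, so the models are given by ID and chromosome, with no names, functions or sequences.

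The level pattern that the choice fixed was the same in both genotypes, and its sizes are given as a description. Together the 200 models held 4.77% ± 0.0717 of all counts in dry JY1605 seeds and 4.33% ± 0.0619 in dry JY1621 seeds (SD, n = 3). After 8 h at 8 °C they held 4.09% ± 0.0333 and 3.61% ± 0.106, and in 8 h warm seeds 0.544% ± 0.0286 and 0.680% ± 0.0787. Most of the stored share was thus still present after 8 h in the cold and mostly absent after 8 h in the warm. At 36 h the genotypes parted: JY1605 held 0.170% ± 0.0234 at 25 °C and 0.542% ± 0.0331 at 8 °C, whereas JY1621 held 0.332% ± 0.0329 and 0.323% ± 0.0465. In JY1605 the 36 h libraries of the 2 temperatures did not overlap (0.154% to 0.197% against 0.510% to 0.576%), and in JY1621 they did. These are shares of a library, so a model's share also depends on all others. With TMM scaling, which sets libraries to a common level over most models, the summed level was 1442 CPM in 36 h warm and 4937 in 36 h cold JY1605 seeds, and 2939 and 2850.5 CPM in those of JY1621. On that scale JY1605 had 63762 CPM in dry, 50977.5 in 8 h cold and 4583 in 8 h warm seeds. JY1621 had 54063, 39200 and 5929 CPM. The percentages of the dry level given below use CPM without TMM scaling. The mean TMM factor was 0.748 in dry and 0.803 in 8 h cold JY1605 seeds, and 0.802 and 0.922 in those of JY1621. With TMM scaling the percentages left in 8 h cold seeds would thus be lower, more so in JY1621. In bulk seed RNA, fewer cells of a type and less RNA per cell cannot be told apart.

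**Figure D1:**
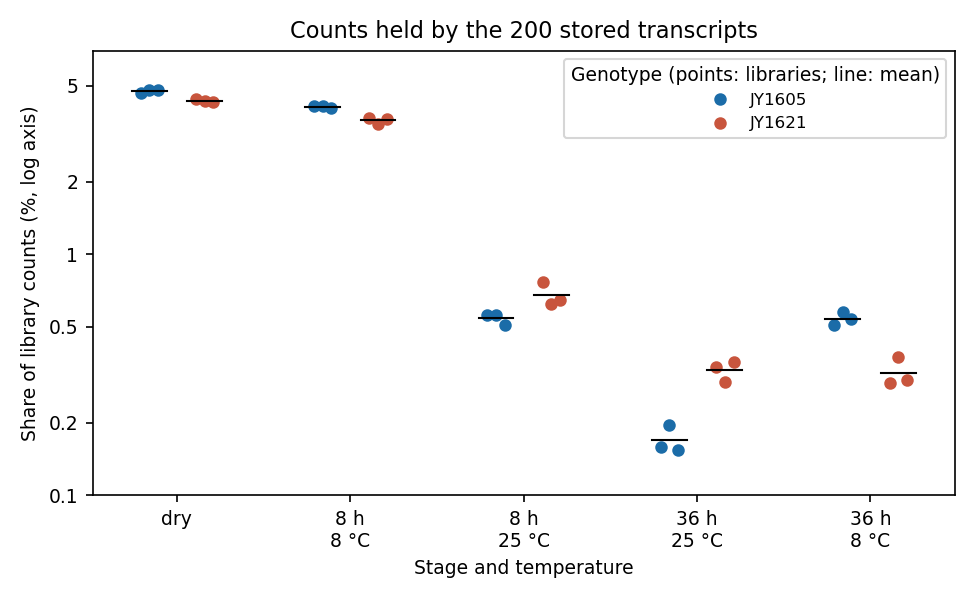
Share of each library's counts held by the 200 stored transcripts, in percent on a log axis, by stage and temperature, for JY1605 (blue) and JY1621 (red); points are libraries and lines are means of 3. The 36 h cold libraries of JY1605 lie near its 8 h warm libraries, while those of JY1621 lie at the level of its 36 h warm libraries.

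Model by model, the median share of the dry-seed CPM left in 8 h cold seeds was 87.2% (quartiles 81.2% and 93.3%) in JY1605 and 84.9% (quartiles 79.6% and 88.9%) in JY1621. After 8 h at 25 °C it was 11.3% (quartiles 7.76% and 14.3%) and 15.1% (quartiles 12.1% and 17.7%). After 36 h at 25 °C it was 2.44% (quartiles 1.25% and 4.69%) and 6.03% (quartiles 3.97% and 9.33%). After 36 h at 8 °C it was 10.6% (quartiles 8.28% and 13.8%) and 7.03% (quartiles 5.47% and 8.70%). The warm 36 h seeds of JY1605 had the lowest median of the 8 groups that took up water. Cold 36 h seeds had a higher median than warm ones in JY1605, and the 2 medians lay close in JY1621. The 36 h warm group was the lowest of the 3 low groups for 179 models in JY1605 and 115 in JY1621, and the 36 h cold group for 8 and 84.

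**Figure D2:**
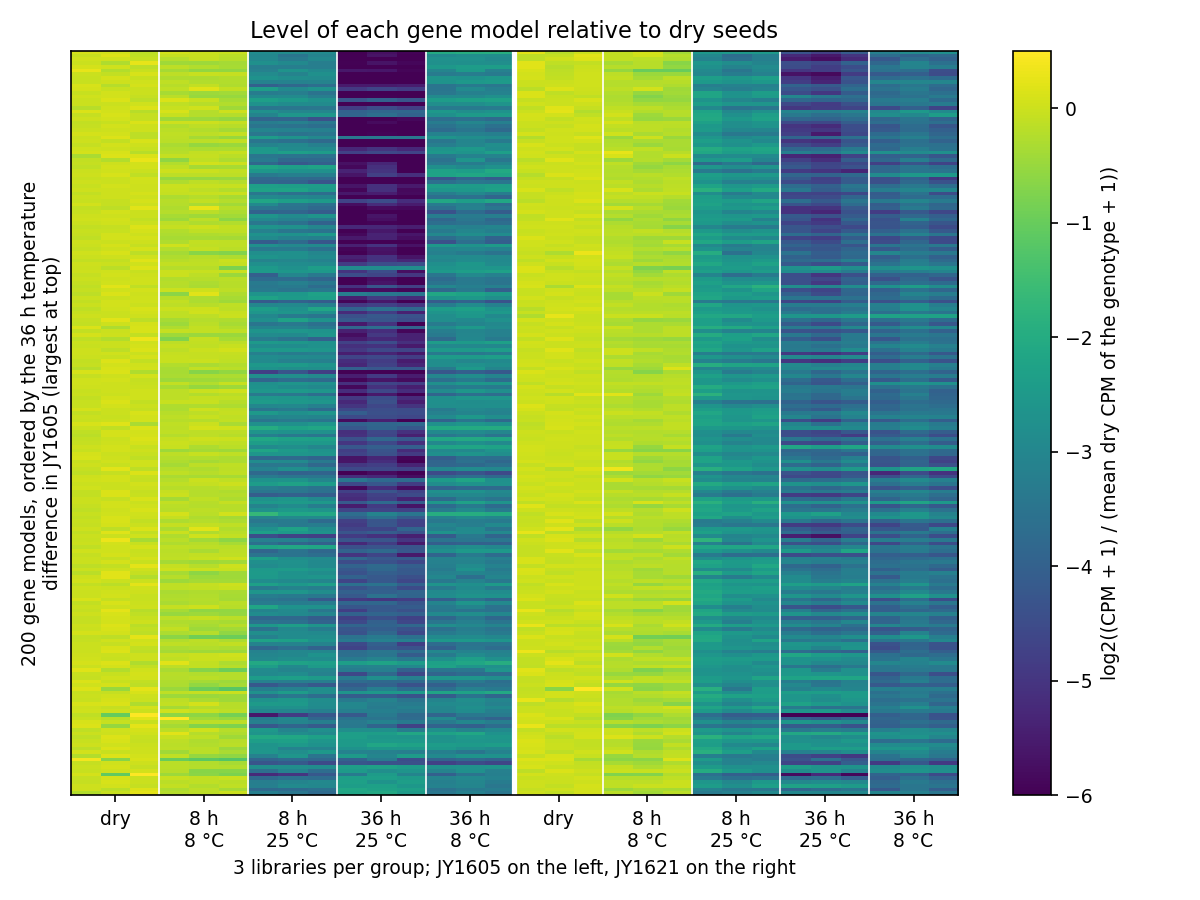
Level of each of the 200 gene models (rows) in each of 30 libraries (columns, 3 per group, JY1605 left and JY1621 right), as log2 of CPM + 1 over the mean dry CPM + 1 of the same genotype. The dry and 8 h cold columns are near 0, and the darkest columns are JY1605 in 36 h warm seeds, where the median model kept 2.44% of its dry level.

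Replicates were tight where the transcripts were high. The median coefficient of variation over the 200 models was 5.65% in dry JY1605 seeds and 5.36% in dry JY1621 seeds, and it was widest, at 24.5%, in 36 h warm JY1605 seeds. In the 36 h groups single libraries stood apart. The highest library exceeded the lowest by over 1.5 times for 123 models in 36 h warm JY1605 seeds, with replicate 2 the highest for 105 of them. It did so for 76 models in 36 h warm JY1621 seeds, with replicate 2 the lowest for 59, and for 74 in 36 h cold JY1621 seeds, with replicate 2 the highest for 63. In 36 h cold JY1605 seeds 28 models did, with replicate 2 the highest for 21. In the 36 h warm JY1605 group 4 models had under 10 counts over the 3 libraries, against 1 in 36 h cold JY1621 seeds and 0 in each of the other 8 groups. A single model's value in those 2 groups can thus rest on few reads. At the edge of the list the scores ran on without a gap, from 1.923 for the last model taken to 1.9196 for the first left out. The last taken, a model on A03, had 446 CPM in 8 h cold seeds and 117 CPM in 8 h warm seeds in JY1621, and the first left out, on A08, 66.3 and 16.8 CPM.

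The model with the highest score, BnaC06G0340700ZS on C06, stood at 617, 687 and 645 CPM in the 3 dry JY1605 libraries and 589, 607 and 598 in 8 h cold seeds. After 8 h at 25 °C it stood at 56.7, 55.5 and 50.8 CPM, in 36 h warm seeds at 19.4, 24.9 and 12.8, and in 36 h cold seeds at 42.7, 63.4 and 48.9. In JY1621 it stood at 394, 405 and 448 CPM in dry seeds, 379, 379 and 314 in 8 h cold seeds and 40.6, 31.0 and 32.4 in 8 h warm seeds. Every library of the high groups exceeded every library of the low groups, as the score demands of the means. At 36 h JY1621 had 17.3, 18.7 and 18.5 CPM at 25 °C and 24.6, 24.7 and 20.8 at 8 °C. The next highest score belonged to BnaA01G0017900ZS on A01, with 99.1, 109.5 and 109 CPM in dry JY1605 seeds and 98.1, 85.7 and 78.5 in 8 h cold seeds. It stood at 4.93, 5.88 and 5.35 CPM in 8 h warm seeds and 0.765, 1.24 and 0.216 in 36 h warm seeds, with 5.09, 5.99 and 4.15 in 36 h cold seeds. In JY1605 the warm 36 h libraries of both models lay below their cold ones, without overlap.

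The models differed in how much of the dry level outlasted 8 h of cold. BnaA09G0163600ZS and BnaA09G0166200ZS, both on A09, had the highest ratio in the genotype where it was lower. The first kept 98.7% of its dry level in JY1605 and 94.8% in JY1621, and the second 96.7% and 95.3%. For BnaA09G0166200ZS the dry libraries of JY1605 had 95.6, 102 and 107 CPM and the cold 8 h libraries 96.2, 98.3 and 99.4, so that the groups overlapped. At the other end, ranked by the ratio in the genotype where it was higher, BnaC06G0024300ZS on C06 kept 65.1% and 60.9%, and BnaA04G0178400ZS on A04 65.1% and 68.4%. Single genotypes reached lower, down to 43.8% for one model in JY1605 and 56.5% for one in JY1621. Both named models varied between dry JY1605 libraries: BnaA04G0178400ZS had 186, 81.6 and 259 CPM there and 127, 113 and 103 in 8 h cold seeds, and BnaC06G0024300ZS 56.9, 35.0 and 59.7 and 38.4, 30.6 and 29.7. Replicate 2 was the low library for both. In dry JY1605 seeds the highest library exceeded the lowest by over 1.5 times for 6 of the 200 models, and replicate 2 was the lowest for 5 of these. Across the 200 models the percent of the dry level left in 8 h cold seeds correlated between the genotypes, which share no library, with Pearson's r = 0.448 on the log2 scale. After 36 h at 8 °C r was 0.704. These describe 200 models that the rule limited in range, and models are not independent replicates.

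Whether the pattern holds in libraries that did not choose the models was read across genotypes. The same rule applied to the JY1605 libraries alone was met by 1168 models, of which the 200 highest scores were taken, 125 of them among the 200 models described above. In the JY1621 libraries, all 200 of these were called lower in 8 h warm seeds than in dry seeds, where 19.4% of all 57945 models tested were. A model was called at an adjusted p under 0.05 (edgeR quasi-likelihood F-test, Benjamini-Hochberg over all models tested) with a log2 fold change of 1 or more in size. Their median log2 fold change was -3.11, against 0 over all models. In 36 h warm seeds 199 were called lower than in dry seeds, and in 36 h cold seeds 200, where 20% and 22.1% of all models were. In 8 h cold seeds 198 were not called against dry seeds (93.5% of all models) and 2 were lower (0.48%), and 200 were called higher than in 8 h warm seeds (16.9%). Few calls in 8 h cold seeds do not show an unchanged level: the median log2 change from dry seeds was -0.46, and without the fold minimum 69 of the 200 stayed uncalled.

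The reverse reading gave nearly the same counts. The rule in JY1621 alone was met by 1309 models, and 107 of its 200 highest were among the models described. In JY1605, 195 of these were called lower than in dry seeds in 8 h warm seeds, 195 in 36 h warm seeds and 195 in 36 h cold seeds. Over all models 20.8%, 24.8% and 23.7% were. In 8 h cold seeds 195 were not called against dry seeds (96.6% of all models), 4 were called lower (0.423%) and 1 higher than in dry seeds, and 197 higher than in 8 h warm seeds, where 20% of all models were. The 2 lists had 75 models in common, all of them among the 200 described.

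After 36 h, most stored transcripts stood higher in the cold than in the warm in JY1605, and most were not called either way in JY1621. The rule used the level of the highest of the 3 low groups in each genotype, and it set neither the order of the 36 h groups nor a difference between genotypes. It did cap the level of each 36 h group, so shares called beside those of all models can be partly set by the choice. In JY1605, 159 of the 200 models were called higher at 8 °C than at 25 °C, 2 were called lower and 39 were not called, where 28.7% of all models were called higher and 32.7% lower. The median log2 fold change was 2.22 (quartiles 1.19 and 3.09), against -0.070 over all models. In JY1621, 33 were called higher, 13 lower and 154 not called, where 14.3% of all models were called higher and 20.1% lower. The median there was 0.14 (quartiles -0.31 and 0.65). In JY1621 the share of the 200 called higher, 16.5%, was near that of all models. Of the models called higher, 30 were called in both genotypes, 18.9% of the JY1605 calls and 90.9% of the JY1621 calls. Over all models, 5821 (10%) were called higher in both, 35% of the 16655 JY1605 calls, with 8315 calls in JY1621. With 33 calls in JY1621 against 159 in JY1605, the shared part of the JY1605 calls could only be small among the 200. The 18.9% beside 35% is thus not read as a difference in sharing. Without replicate 2 of the warm seeds, 164 models were called higher in JY1605 and 27 in JY1621, and without replicate 2 of the cold seeds 158 and 22.

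By the test of the difference itself, the effect of 8 °C against 25 °C at 36 h was lower in JY1621 than in JY1605 for 168 of the 200 models and higher for 4 (edgeR interaction term), where 20.8% of all models were called lower and 19.8% higher. The median difference was -2.15 on the log2 scale (quartiles -2.74 and -1.47), against 0.051 over all models. Leaving out each of the 12 libraries in turn gave 160 to 171 models called lower. The same difference at 8 h is built from the 8 h cold and 8 h warm levels that the rule divided in each genotype, and it is given as a description only: 47 models passed the thresholds in the lower and 0 in the higher direction, where 5.91% and 6.93% of all models did. In the higher direction DESeq2's Wald test called 0 too, and 1 model had an unadjusted edgeR p under 0.05. With scaling by library size only the lower count was 27, and the median of all models moved by 0.25 on the log2 scale.

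**Figure D3:**
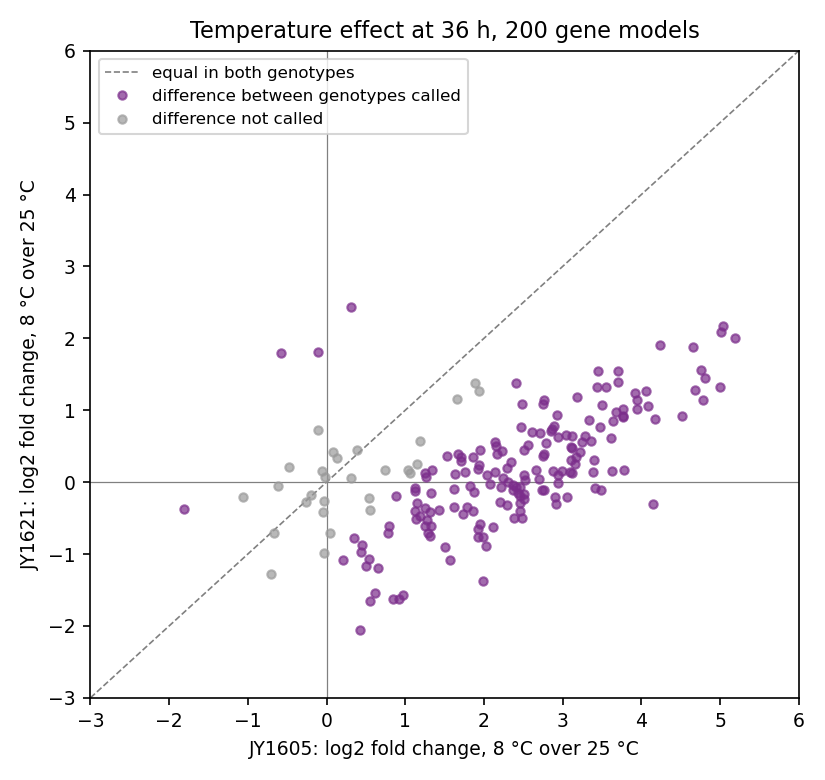
Log2 fold change of 8 °C over 25 °C at 36 h for each of the 200 gene models, JY1605 on the horizontal and JY1621 on the vertical axis, with the line of equal effects dashed. Purple points are the models whose difference between genotypes was called, 168 below and 4 above the line; most points lie right of 0 and below the line.

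Ranked by the smaller change of the 2 genotypes, the largest effect of cold called in both was that of BnaA03G0167100ZS on A03. In JY1605 it stood at 0.121, 0.799 and 0.0433 CPM in 36 h warm seeds and 11.2, 12.05 and 11.9 at 8 °C, and in JY1621 at 0.971, 0.573 and 1.31 and 4.80, 4.05 and 4.53. The temperatures did not overlap in either genotype, and replicate 2 of the warm JY1605 group stood above the other 2. Cold over warm, the log2 difference was 5.04 ± 0.324 (SE, edgeR adjusted p = 8.49e-13) in JY1605 and 2.18 ± 0.295 (SE, edgeR adjusted p = 8.33e-07) in JY1621. Without that replicate it was 7.14 in JY1605, where the 3 warm libraries held 3, 27 and 1 counts. The SE is from the joint fit of all groups and does not measure the spread of those 3 libraries alone. BnaC03G0193100ZS on C03 followed, with 0.805, 1.63 and 1.17 CPM in the warm and 38.8, 38.6 and 34.4 in the cold in JY1605, and 1.43, 1.03 and 1.92 and 4.95, 7.80 and 6.16 in JY1621. The temperatures again did not overlap. The log2 difference came to 5.01 ± 0.177 (SE, edgeR adjusted p = 2.65e-22) in JY1605 and 2.08 ± 0.190 (SE, edgeR adjusted p = 2.99e-11) in JY1621. In dry seeds it had stood at 266, 267 and 248 CPM in JY1605 and 97.1, 108 and 120.4 in JY1621, so that the cold 36 h seeds kept 14.3% and 5.81% of it and the warm ones 0.461% and 1.35%. No model was called lower at 8 °C in both genotypes.

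The genotypes differed most in the temperature effect of BnaA03G0537200ZS on A03. Its warm 36 h libraries held 1.13, 1.57 and 1.04 CPM in JY1605 and 11.6, 8.60 and 7.12 in JY1621, and its cold ones 20.7, 19.8 and 23.02 and 6.85, 7.57 and 9.18. Cold libraries were above warm ones without overlap in JY1605, and the temperatures overlapped in JY1621. The difference of the effects, JY1621 less JY1605, was -4.45 ± 0.271 (SE, edgeR adjusted p = 1.35e-13), from 4.14 ± 0.207 (SE, edgeR adjusted p = 2.05e-16) in JY1605 to -0.31 ± 0.168 (SE, edgeR adjusted p = 0.11) in JY1621. For BnaC02G0144500ZS on C02 the warm libraries held 0.201, 0.473 and 0.260 CPM in JY1605 and 1.16, 0.917 and 2.02 in JY1621, and the cold ones 10.2, 10.1 and 9.75 and 2.33, 4.61 and 2.89. Cold exceeded warm in both genotypes without overlap. The difference of the effects was -3.68 ± 0.499 (SE, edgeR adjusted p = 1.03e-06). In JY1621 its own effect was 1.32 ± 0.291 (SE, edgeR adjusted p = 0.000381), and without replicate 2 at 8 °C it was 0.94, under the fold minimum.

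The 4 models for which that difference was called higher were BnaA04G0178400ZS and BnaC04G0477500ZS, which the naming rule gave, and BnaC07G0231000ZS and BnaA09G0716900ZS, named after their values were seen. BnaC04G0477500ZS on C04 stood at 8.25, 15.7 and 11.4 CPM in 36 h warm seeds and 10.5, 15.1 and 16.2 at 8 °C in JY1605, where the temperatures overlapped. In JY1621 it stood at 3.45, 3.95 and 3.54 and 19.7, 22.9 and 15.5 CPM, without overlap, and the difference of the effects was 2.12 ± 0.543 (SE, edgeR adjusted p = 0.00213). BnaA04G0178400ZS was also higher in the cold in JY1621, with 3.39, 5.62 and 3.08 CPM in the warm and 15.6, 14.5 and 9.37 in the cold. In JY1605 it stood at 16.3, 31.4 and 19.95 CPM in the warm and 9.91, 14.7 and 18.3 in the cold, with overlap. The log2 change there was -0.58, against 0.32 for BnaC04G0477500ZS. The difference of effects for BnaA04G0178400ZS was 2.37 ± 0.559 (SE, edgeR adjusted p = 0.00101). Dry JY1605 libraries of BnaC04G0477500ZS, at 154, 81.1 and 268 CPM, had the same low replicate 2 as those of BnaA04G0178400ZS. BnaC07G0231000ZS differed by 1.91 ± 0.441 (SE, edgeR adjusted p = 0.000603) and BnaA09G0716900ZS by 1.44 ± 0.342 (SE, edgeR adjusted p = 0.000383). The latter and BnaC07G0007400ZS, also named after the fact, were the 2 models called lower in the cold in JY1605. BnaC07G0007400ZS stood there at 83.1, 76.7 and 74.1 CPM in the warm and 30.7, 35.7 and 38.1 in the cold, and BnaA09G0716900ZS at 2.82, 3.05 and 2.16 and 0.610, 0.959 and 0.593. Without replicate 1 of the 36 h cold JY1605 seeds, 1 of the 2 was called lower.

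**Figure D4:**
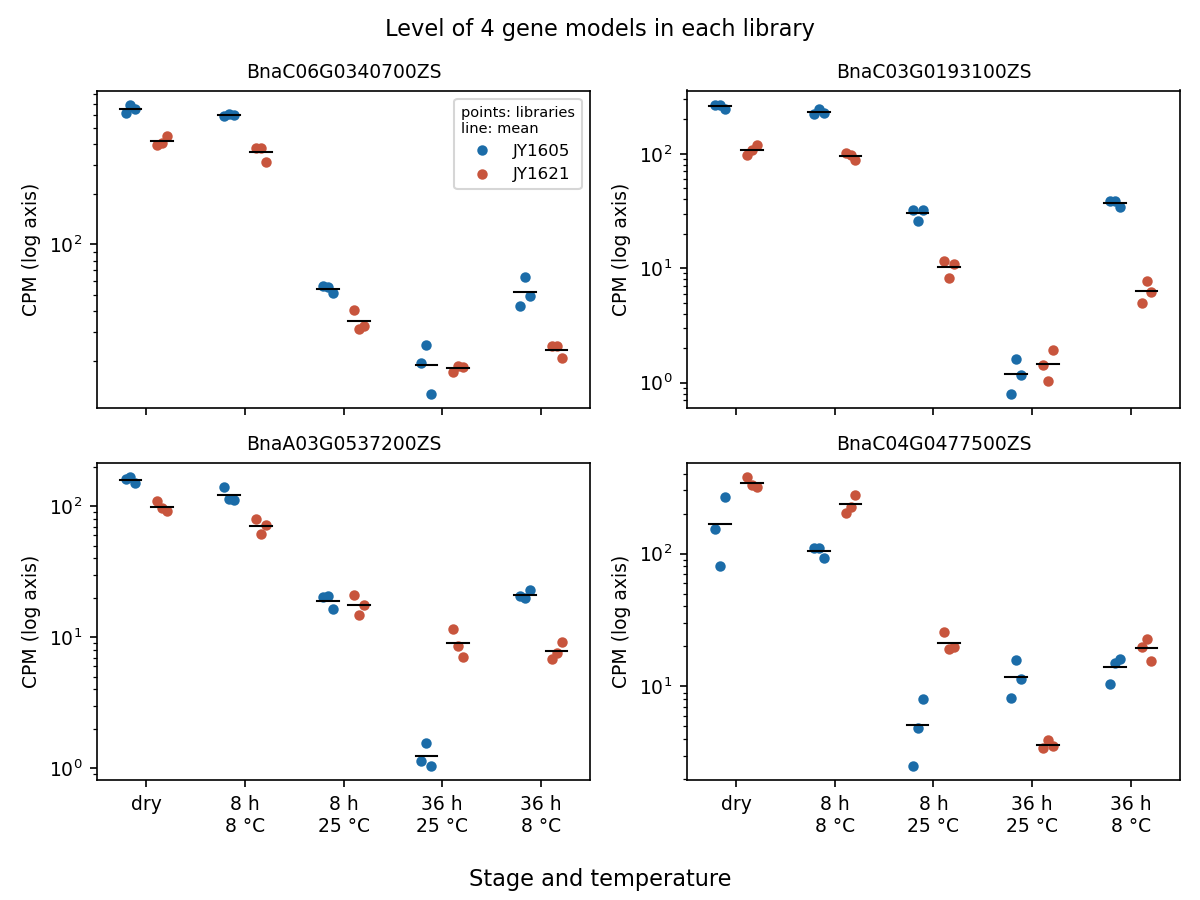
CPM on a log axis of 4 gene models in every library, by stage and temperature, for JY1605 (blue) and JY1621 (red); points are libraries and lines are means of 3. BnaC06G0340700ZS has the highest score, BnaC03G0193100ZS is higher in the cold at 36 h in both genotypes, and BnaA03G0537200ZS and BnaC04G0477500ZS differ between the genotypes in opposite directions.

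Most stored transcripts fell further between 8 h and 36 h in the warm in both genotypes. Against the same 8 h warm seeds, 36 h cold seeds had lower calls in JY1621 and none in JY1605. At 25 °C, 152 models were called lower at 36 h than at 8 h in JY1605 and 6 higher, where 26.1% and 29.6% of all models were. In JY1621 114 were called lower and 0 higher, where 10.4% and 15.9% of all models were. The rule capped the levels of these groups below those of dry seeds, so models that rise strongly at 36 h were left out. Few higher calls beside those of all models are thus partly set by the choice. Of the higher direction in JY1621, 4 models were called without the fold minimum, 6 had an unadjusted p under 0.05, and DESeq2 called 0. The median log2 fold changes were -2.20 and -1.22, against 0.019 and 0.015 over all models. Of the models called lower, 104 were called in both, 68.4% of the JY1605 and 91.2% of the JY1621 calls. Over all models, 4407 (7.61%) were called lower in both, 29.2% of the 15101 JY1605 calls, with 6016 calls in JY1621. The 6 that were higher at 36 h in JY1605 included BnaA04G0178400ZS, BnaC04G0477500ZS, BnaA09G0716900ZS and BnaC07G0007400ZS.

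Seeds kept 36 h at 8 °C were compared with seeds kept 8 h at 25 °C. In JY1605, 0 models were called lower and 8 higher in the cold seeds, where 6.54% and 7.42% of all models were. The 0 lower calls became 27 without the fold minimum, 31 at an unadjusted p under 0.05, and were 0 by DESeq2. The median log2 fold change was 0.098 (quartiles -0.18 and 0.40), and with scaling by library size only it was -0.016 and 5 models were called higher. In JY1621, 114 were called lower and 0 higher, where 7.06% and 6.33% of all models were, with a median of -1.08 (quartiles -1.31 and -0.70). By DESeq2 0 models were called higher, and 0 had an unadjusted edgeR p under 0.05 in that direction. This difference between the genotypes was not tested by a term of its own. These comparisons join a change of temperature to a change of time and time of day. The rule capped both groups here too, so few higher calls beside those of all models are partly set by the choice. Of the 3 low groups, 8 h warm seeds were the highest for 99 models in JY1605 and 183 in JY1621.

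Between genotypes the 200 models leaned one way in the warm and the other in dry and cold seeds. In dry seeds 28 were called lower in JY1621 than in JY1605 and 7 higher, where 9.52% and 10.8% of all models were, with a median log2 fold change of -0.22. These are 14.0% and 3.50% of the 200. In 8 h cold seeds 36 were called lower and 6 higher (8.89% and 12.1% of all models), with a median of -0.41. With scaling by library size only these became 24 and 10, and the median -0.21, that of all models moving by 0.19. In 8 h warm seeds 42 were called higher and 15 lower (12.9% and 11.6% of all models), with a median of 0.29. The median differences were largest in size at 36 h. At 25 °C 117 were called higher in JY1621 and 8 lower (21.1% and 27% of all models), with a median of 1.29. At 8 °C 83 were called lower and 4 higher (12.8% and 12.1% of all models), with a median of -0.85. At 36 h 38 models were both higher in JY1621 in the warm and lower in the cold, 32.5% of the first list and 45.8% of the second. Over all models, 904 (1.56%) met both calls, 7.39% of the 12240 higher in the warm, with 7389 lower in the cold. All 28 models called lower in dry JY1621 seeds were also among the 83 called lower in 36 h cold seeds. Of the 5517 called lower in dry seeds over all models, 61.1% were too, and 5.82% of all models met both calls. In all 5 conditions 3 models were called higher in JY1621 and 3 lower, where 3.06% and 3.51% of all models were.

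**Figure D5:**
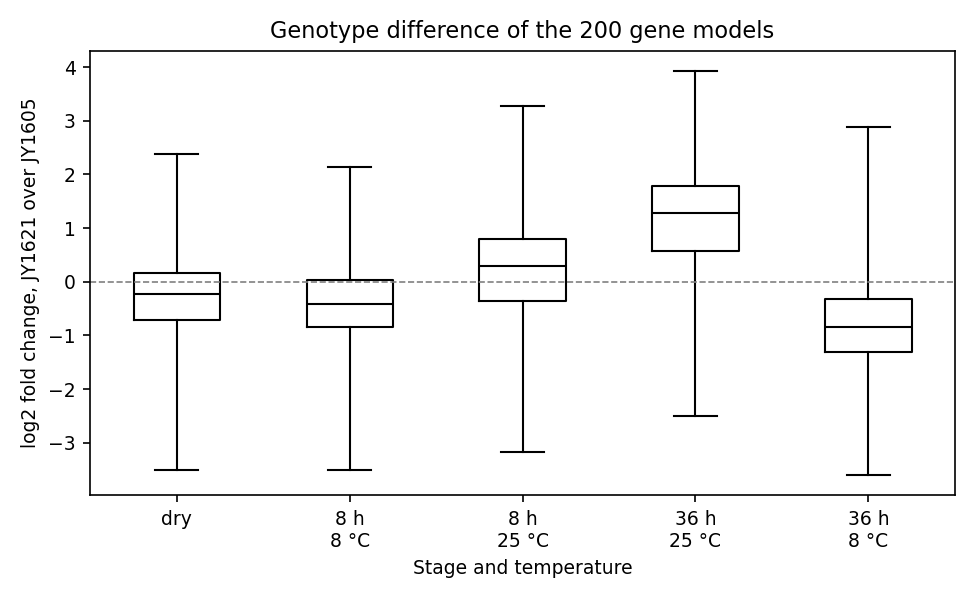
Log2 fold change of JY1621 over JY1605 of the 200 gene models by stage and temperature; boxes show the quartiles and the median, whiskers the lowest and highest model. The median is below 0 in dry and cold seeds and above 0 in warm seeds, highest at 1.29 in 36 h warm seeds.

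Single models differed by far more than the median in dry seeds. BnaC05G0152000ZS on C05 stood at 39.1, 38.2 and 39.9 CPM in dry JY1605 and 217, 209 and 223 in dry JY1621 seeds, a log2 difference of 2.37 ± 0.1001 (SE, edgeR adjusted p = 1.85e-23). BnaC01G0211600ZS on C01 had 56.5, 51.2 and 62.4 and 325, 376 and 254 CPM, a difference of 2.39 ± 0.2497 (SE, edgeR adjusted p = 6.67e-08). Both were higher in JY1621 in every other condition too, and both still lost most of their level in the warm, with 4.76% and 5.53% of it left in JY1621 after 36 h. In the other direction, BnaA09G0475300ZS on A09 had 521, 519 and 542 CPM in dry JY1605 and 48.1, 43.0 and 56.6 in dry JY1621 seeds, a difference of -3.52 ± 0.209 (SE, edgeR adjusted p = 4.44e-12). BnaA05G0425300ZS on A05 had 154, 188 and 145 and 19.0, 15.8 and 20.4 CPM, a difference of -3.24 ± 0.176 (SE, edgeR adjusted p = 1.4e-13). The genotypes did not overlap for any of these 4. Oilseed rape carries an A and a C copy of many genes, and the sources used here do not give how reads matching both copies were counted, so a difference between genotypes in one model can hold reads of its copy.

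The 200 models were spread over all 19 chromosomes named in the IDs, with 95 in the A and 105 in the C subgenome and 0 on unplaced scaffolds. Of the models at 5 CPM or more in dry seeds of both genotypes, 49.6% lay in A and 49.1% in C. A03 held the most, 20, followed by A09 and C09 with 18 each, and A06 the fewest, 4. These are 10%, 9%, 9% and 2% of the 200, where 6.71%, 8.05%, 6.37% and 5.36% of the models at 5 CPM or more lay there. By the order of the IDs, 8 pairs lay within 5 models of each other on a chromosome and 2 pairs were direct neighbours. One of these holds the highest score, BnaC06G0340700ZS, whose neighbour had a mean of 18.8 CPM in dry seeds against 533. CPM is not scaled for length, so these 2 levels count reads rather than molecules.

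The same comparisons were read in models outside the list. Of the 451 models that met every condition with lower scores, 217 (48.1%) were called higher in the cold at 36 h in JY1605. Another 16 (3.55%) were called lower, and the median of the 451 was 0.95. Over all models 28.7% and 32.7% were called. In JY1621 44 (9.76%) were called higher and 80 (17.7%) lower, with a median of -0.27. These shares lay below those of all models, 14.3% and 20.1%. The difference between genotypes was called lower for 254 (56.3%) of the 451 and higher for 3 (0.665%), where 20.8% and 19.8% of all models were. Of the 100 most abundant models of dry seeds, which the rule set aside, 65 met the other conditions. Of these, 59 (90.8%) were called higher in the cold in JY1605 and 0 lower. In JY1621 9 (13.8%) were called higher and 5 (7.69%) lower. The effect was lower in JY1621 for 62 (95.4%) of the 65 and higher for 0, with a median difference of -2.61. The median share of the dry level left in 36 h warm seeds was 1.04% in JY1605 and 4.90% in JY1621 for these, and 9.65% and 17.2% for the lower scores. No test was made between these sets.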

How the data were processed

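The authors deposited one table of raw counts per gene model for 30 libraries. The submitters' processing notes name HISAT2 (2.2.1), featureCounts (2.0.6) and DESeq2 (1.42.0), without the role of each. The sources used here do not give settings, strand or build. The members and lists were chosen with earlier results of these data known. Levels are CPM, the count over the library total. Tests used edgeR 4.0.16 in R 4.3.3 (quasi-likelihood F-test, robust, TMM factors) in a joint fit of the 30 libraries, over 57945 models kept by filterByExpr (minimum count 10, minimum total 15). All 200 models passed this filter. Besides the comparisons read across genotypes, 13 were fitted, with p-values adjusted within each. The rule divided the levels behind the 8 h genotype difference of the temperature effect, so it is a description. The other 12 were tested, though the rule bounded the levels of every group compared. Their counts beside those of all models can thus be partly set by the choice. A standard error is the log2 fold change over the root of F. The scripts were first tested on simulated counts. Pairs of libraries within a group differed by chi-square per degree of freedom of 2.71 to 7.18, so none agreed within sampling noise. Named models follow a rule fixed with the comparisons: the 2 highest scores, the 2 highest ratios of 8 h cold to dry in the genotype where it was lower, the 2 lowest in the genotype where it was higher, and up to 2 per direction for the dry-seed genotype difference, the 36 h temperature effect in both genotypes and its difference between genotypes. Of the gene IDs, 0 matched a RefSeq table of 123214 genes of another assembly, so lists of named genes, cell type markers included, could not be used. Alternatives were DESeq2's size factors, library size scaling, no low-count filter, DESeq2's Wald test, smaller fits with the compared groups alone, a replicate block, no fold minimum and leaving out each library. Intervals from reads would cover counting error only, and none are given.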

Additional observations from a re-analysis of the deposited data

Results flagged for a closer look

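The effect of 8 °C against 25 °C differed between JY1605 and JY1621 by a test of the difference itself. At 36 h it was lower in JY1621 for 168 and higher for 4 of the 200 models, where 20.8% and 19.8% of all models were called. Among named models the difference at 36 h (JY1621 less JY1605, log2) was -4.45 ± 0.271 (SE, edgeR adjusted p = 1.35e-13) for BnaA03G0537200ZS and -3.68 ± 0.499 (SE, edgeR adjusted p = 1.03e-06) for BnaC02G0144500ZS. It was 2.37 ± 0.559 (SE, edgeR adjusted p = 0.00101) for BnaA04G0178400ZS and 2.12 ± 0.543 (SE, edgeR adjusted p = 0.00213) for BnaC04G0477500ZS. All 3 cold libraries of BnaA03G0537200ZS and BnaC02G0144500ZS stood above all 3 warm ones in JY1605. Groups of 3 libraries are too small to test for single outlying libraries. By description, some stood apart among the models whose highest library exceeded the lowest by over 1.5 times. Replicate 2 was the highest for 105 of 123 such models in 36 h warm JY1605 seeds and for 63 of 74 in 36 h cold JY1621 seeds. It was the lowest for 59 of 76 in 36 h warm JY1621 seeds.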

How the results depend on the processing

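Of the counts of members called in the larger direction of each comparison, and of the counts read across genotypes, those not named here stayed within 1.5 times their value under DESeq2's size factors, library size scaling, no low-count filter, DESeq2's Wald test, smaller fits with the compared groups alone and the replicate block. Library size scaling gave 5 in place of 8 models higher in 36 h cold seeds than in 8 h warm seeds in JY1605, and 27 in place of 47 with a lower temperature effect in JY1621 at 8 h, a difference built from levels the rule used. Without the fold minimum the larger counts of the genotype comparison were 89 in dry seeds, 95 in 8 h warm seeds, 110 in 8 h cold seeds and 148 in 36 h cold seeds. Those of cold over warm seeds were then 67 at 36 h in JY1621 and 45 against 8 h warm seeds in JY1605, that of the 8 h difference 115, and 69 models chosen in JY1605 were uncalled between dry seeds and 8 h at 8 °C in JY1621. That setting calls more by its construction; for the scaling the cause was not tested. With one library left out, the models higher in the cold at 36 h were 156 to 164 in JY1605 and 22 to 37 in JY1621. The 22 came without replicate 2 at 8 °C. The interaction at 36 h was lower for 160 to 171. In JY1621 the effect for BnaA03G0537200ZS, not called, was 0.000621 without replicate 1 at 25 °C and -0.45 without replicate 3, against -0.31. Of the 200 members, 165 remained with TMM-scaled CPM in the rule, 188 and 166 with 0.25 and 4 CPM added in the score, 156 with no abundant models dropped, and 172 to 180 with one replicate number left out. The replicate block gave 159 and 33 models higher in the cold at 36 h and 168 with a lower effect in JY1621. The replicate numbers do not pair the libraries: deviations of same-numbered libraries from their group means correlated at -0.149 to 0.2497, over 0.1 for 7 of 135 pairs.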
